A study of Mus musculus with 45 samples.

Results

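Motile cilium axoneme genes were followed in 3 brain regions of adult WT, Shank3-heterozygous (Shank3-HT) and Shank3-homozygous mutant (Shank3-HM) mice. The members were the genes of the normalized count table whose symbols start with Dnah, Dnai, Cfap, Tekt or Rsph and a number, and whose mean normalized count reached 10 in at least 1 region. Of the 18135 genes in the table, 56 matched these names and 54 of them met the level, namely 15 Dnah, 29 Cfap, 4 Tekt and 6 Rsph genes, while no gene of the table carried a Dnai symbol. The mean reached 10 for 41 members in cortex, 52 in hippocampus, 51 in striatum and 40 in all 3 regions. The members nearest to the limit were Cfap221 and Cfap299, whose highest regional means were 14.5 and 14.6, and the nearest genes outside it were Cfap73 and Rsph14, with 7.84 and 7.57.

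RNA from prefrontal cortex (cortex hereafter), hippocampus and striatum of C57BL/6J males aged 13 weeks was sequenced, with 5 mice per genotype in each region and 45 samples in all. Shank3 encodes a scaffold protein of excitatory synapses. The WT mice carried no mutant allele, the Shank3-HT mice carried the mutant allele, which lacks a block of Shank3 exons, beside a WT allele, and the Shank3-HM mice carried no WT allele (their labels read knock-out and their table columns KI). The sources used here do not say whether the 3 regions came from the same mice.

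Motile cilia are beating projections built on an axoneme, a ring of doublet microtubules around a central pair. Outer and inner dynein arms, whose motors are the Dnah heavy chains, slide the doublets. Radial spokes (Rsph) pass signals from the central pair to the arms, tektins (Tekt) run as filaments inside the doublet wall, and the Cfap genes are named only for an association with cilia or flagella, so that they cover dynein tethers, doublet inner proteins, central pair proteins, dynein assembly factors and some proteins that cells without motile cilia also use. In the brain, motile cilia are carried by the multiciliated ependymal cells that line the ventricles, where they move cerebrospinal fluid, and the choroid plexus, which secretes that fluid, is marked by transthyretin (Ttr). Foxj1 and the RFX factors are the transcription factors known to turn on motile cilium genes, through forkhead sites and X-box sites.

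Promoter windows (RefSeq, GRCm38.p6, from 250 bases before to 50 bases after a gene's start) were given for 44 of the 54 members, and the members whose windows held a motif of these factors are shown, since such letters are what the factors are known to read. Both strands were searched, and no member's window held more than 1 of the 3 motifs. In each stretch the matched letters are in capitals, as read on the gene's strand.

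The first motif was an X-box pair, GTTNCC and GGNAAC with 2 bases between them, which 1 of 44 members (2.27%) and 143 of all 27025 genes with windows (0.529%) held.

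Cfap298, chr16:90935016-90935045, minus strand: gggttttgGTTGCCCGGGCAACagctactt

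The second was the half-site GTTGCC followed by AT, which 5 of 44 members (11.4%) and 416 of all 27025 genes (1.54%) held.

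Cfap161, chr7:83794862-83794891, minus strand: gcctggtcgtcATGGCAACgaagcacgcta

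Cfap44, chr16:44394767-44394796, plus strand: gggacgttgctATGGCAACcgcagtaaacg

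Cfap74, chr4:155409192-155409221, plus strand: agcagccttccGTTGCCATggagctgcgcg

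Cfap97d2, chr8:13705857-13705886, plus strand: gcctgggtgccATGGCAACcgtcacatgac

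Tekt1, chr11:72361883-72361908, minus strand: gcgtccgtccgGTTGCCATagagacc

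The third was the forkhead core TGTTTAC, which 3 of 44 members (6.82%) and 1095 of all 27025 genes (4.05%) held.

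Cfap43, chr19:47837399-47837427, minus strand: aggatacaggtGTAAACAgtggcatcttc

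Cfap20, chr8:95435034-95435062, minus strand: acgcaggcactGTAAACAcgtgaggtaaa

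Dnah17, chr11:118129403-118129431, minus strand: caggggtacccTGTTTACctgatgaccct

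These matches are a description of letters near the starts, with no test, and the starts of Cfap44, Cfap97d2 and Tekt1 lay 13, 13 and 7 bases past the match. RefSeq and GENCODE starts differ for some genes. The stretches of Cfap298, Cfap74, Tekt1, Cfap43 and Dnah17, and the matched letters of Cfap161, therefore lie inside the gene as GENCODE draws it.

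The libraries were checked before the members were read. Shank3 itself separated the genotypes in every region, and its normalized counts in cortex were 8005 ± 725 (SD, n = 5) for WT, 6138 ± 373 for Shank3-HT and 4054 ± 285 for Shank3-HM, while the 5 samples of each genotype did not overlap in any region. Tbr1 and Cux2, markers of cortical tissue, were higher in WT cortex and markers of striatal tissue (Drd1, Adora2a, Ppp1r1b) all higher in WT striatum than in the other regions, and 2 of the 3 hippocampal markers were higher in WT hippocampus than in either. A pair of libraries stood apart. Cortex Shank3-HM replicate 2 had a Drd1 level of 2483 where the other 14 cortex samples had 119 to 225, and striatum Shank3-HT replicate 5 had a Ttr level of 62259 where the other striatum samples had 1.93 to 840. Ttr ran from 1.0 to 932 in cortex and from 591 to 113040 in hippocampus. The normalized totals, 26118607 to 29568983 per sample, were set by the authors' scaling, so the sequencing depth behind each value is unknown.

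The 54 members covered a wide range of levels, and the most abundant of them were not dynein motors. Over all 45 samples and per kilobase of the longest coding transcript, the highest members were Cfap36 at 1105, Cfap20 at 391 and Cfap298 at 341 normalized counts per kilobase, with Cfap97 at 188. Cfap36 resembles a protein that binds small GTPases, Cfap20 sits at the inner junction of the doublet, Cfap298 is a dynein assembly factor, and all 4 were listed as members known in cells without motile cilia. Rsph3b and Rsph3a, near-identical copies of a radial spoke stalk protein, reached 205 and 167 per kilobase, and Rsph9, a spoke head protein, reached 165. Among the heavy chains, which are encoded by very long transcripts, Dnah9, of the outer arm, stood highest at 22.2 per kilobase, followed by the inner arm chains Dnah1 at 20.8, Dnah7b at 14.9 and Dnah2 at 12.0, and by Dnah5, of the outer arm, at 11.9. The order differed by region, since Dnah9 led in hippocampus at 52.0 per kilobase, while Dnah1 led in cortex at 13.1 and in striatum at 33.0, where Dnah9 was at 7.60 and 7.10. The tektins stood at 83.4 (Tekt5), 31.1 (Tekt1) and 24.6 (Tekt2) per kilobase, with Tekt1 above Tekt2 in hippocampus (55.4 and 20.6) but below it in cortex (10.8 and 23.9) and in striatum (27.2 and 29.3).

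**Figure D1:**
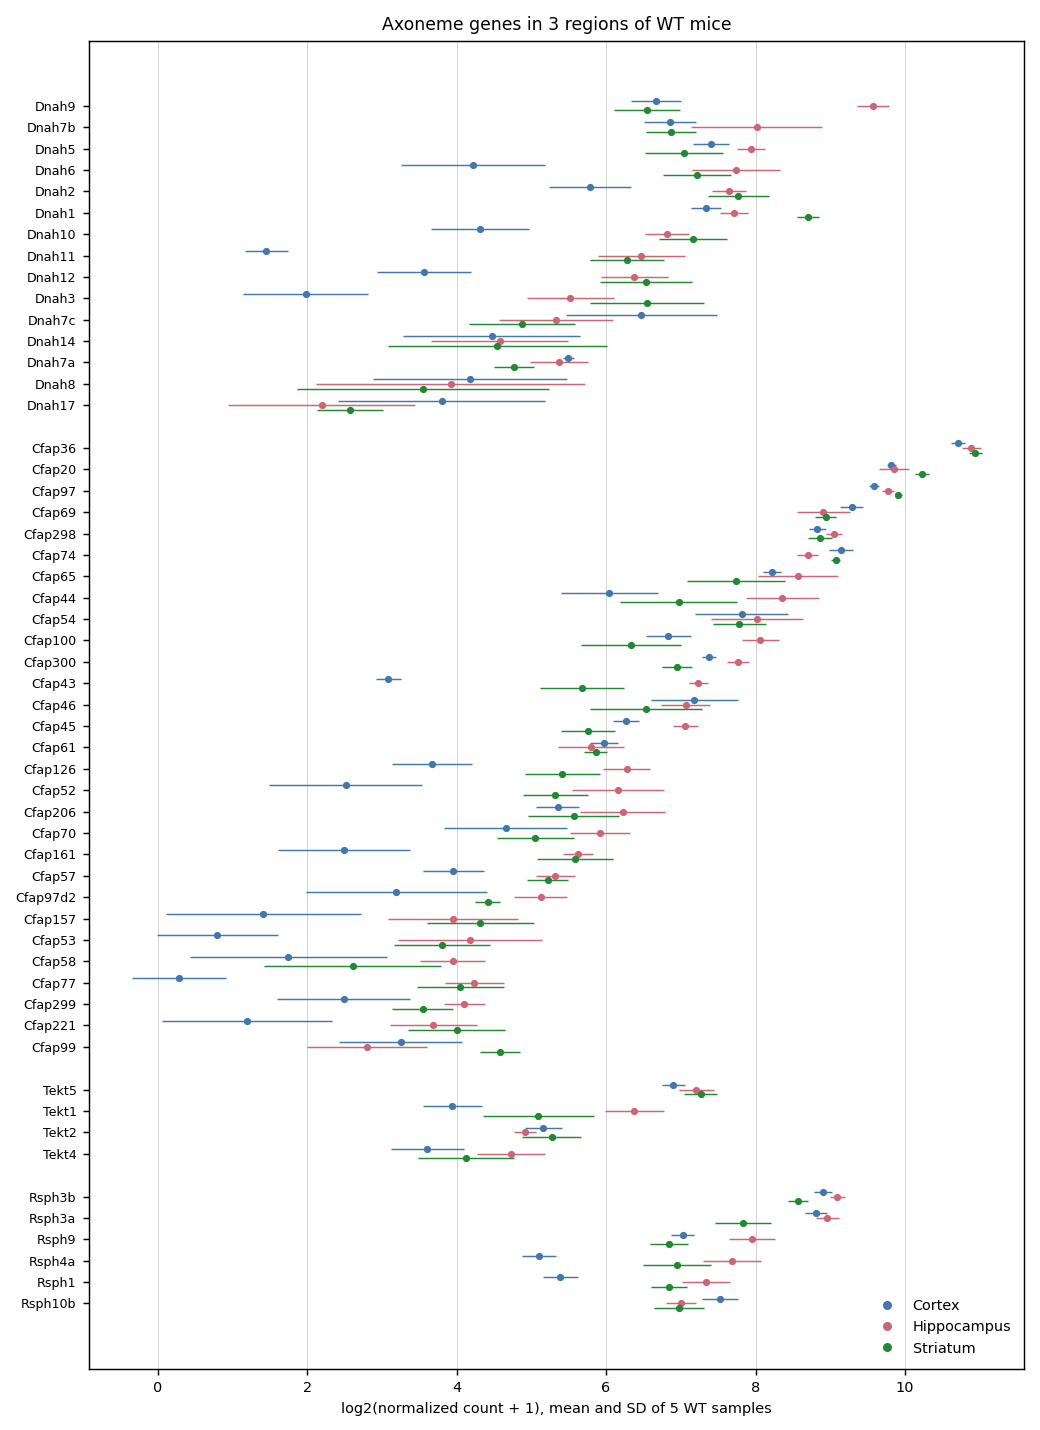
Mean ± SD of log2(normalized count + 1) of each member in the 5 WT samples of cortex, hippocampus and striatum. Most members sit lowest in cortex, with Dnah11, Cfap43 and Cfap77 far below their level in hippocampus, while Cfap36, Cfap20 and Cfap97 are high in all 3 regions.

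The first comparison asked how the axoneme genes differ between regions of WT mice. More members were lower than higher in cortex against hippocampus. Of the 50 members tested, 34 were lower and 3 higher in cortex (limma, Benjamini-Hochberg adjusted p under 0.05 over 16708 genes), where 23.3% of all genes tested were lower and 23.3% higher. The median log2 difference of the members, cortex minus hippocampus, was -0.90, beside -0.01 over all genes. By family, 10 of 14 Dnah, 18 of 26 Cfap, 4 of 6 Rsph and 2 of 4 Tekt members were lower in cortex. The filter asked for a mean of 10 over all 45 samples, and 10 of the 50 members had a mean under 10 in cortex and passed it through the other regions (Cfap43, Cfap52, Cfap53, Cfap77, Cfap97d2, Cfap99, Cfap157, Cfap161, Dnah3 and Dnah11), so that they had to differ between some regions. They made up 9 of the 34 lower members. All 10 are Dnah or Cfap genes, so the counts of those families are partly set by the filter. Over the 40 members with a mean of at least 10 in all 3 regions, 25 were lower and 3 higher, where 22.9% of all such genes were lower and 23.4% higher, and the median was -0.38. In bulk tissue, fewer ciliated cells and less RNA per ciliated cell cannot be told apart.

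Among the outer arm heavy chains, Dnah11 (chr12:117877982-118199043, minus strand, GRCm38), which works at the base of airway cilia, was at 0.945, 2.09, 2.19, 1.92 and 1.75 normalized counts in the 5 WT cortex samples. In WT hippocampus it was at 42.9, 90.2, 113, 105 and 113. The 2 groups did not overlap, and the difference of -5.02 (SE 0.53) on the log2(value + 1) scale was the largest of any member in this contrast. On this scale the size of a change is understated for genes at such low levels. Dnah11 passed the filter only through the other regions, so its difference is given as a description. Dnah9 (chr11:65831282-66168551, minus strand), the outer arm motor toward the tip of the cilium, was at 85.5, 85.3, 121, 85.4 and 139 in WT cortex. In WT hippocampus Dnah9 was at 794, 971, 721, 683 and 675. Every hippocampal sample was thus above every cortical one, and the log2 difference was -2.90 (SE 0.23, adjusted p = 5.94e-14). Dnah5, the partner motor of the same arm, differed less, at 170 ± 29.2 in cortex and 245 ± 32.2 in hippocampus (SD, n = 5), a log2 difference of -0.53 (SE 0.19, adjusted p = 0.0159).

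The inner arm heavy chains followed the same direction, with large differences for Dnah3 (-3.54, SE 0.49), Dnah6 (-3.52, SE 0.34), Dnah12 (-2.82, SE 0.35), Dnah10 (-2.51, SE 0.32) and Dnah2 (-1.86, SE 0.27) on the log2 scale and adjusted p between 7.97e-12 and 1.57e-07. Of these, Dnah3 passed the filter only through the other regions, so its difference is given as a description. Dnah1 differed by only -0.37 (SE 0.12, adjusted p = 0.00963). The 3 Dnah7 copies did not move together. Dnah7b was lower in cortex (-1.16, SE 0.26), Dnah7c was higher (1.14, SE 0.47, adjusted p = 0.0435), and Dnah7a, at 44.2 ± 2.50 in cortex and 41.5 ± 10.8 in hippocampus, did not pass the test. The WT cortex samples of Dnah7c were widely spread, at 107 ± 75.9, where Shank3-HT cortex was at 57.2 ± 9.89 and Shank3-HM cortex at 53.9 ± 17.9. Since these copies are near-identical, reads may have been divided among them in ways the table does not show.

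Of the remaining structures, the tether gene Cfap43 (chr19:47736857-47919287, minus strand), whose product holds the double-headed inner arm dynein to the doublet, was at 8.39, 8.13, 6.02, 7.89 and 7.24 in WT cortex. In WT hippocampus it was at 147, 141, 142, 176 and 145. The groups were far apart, with a log2 difference of -4.15 (SE 0.33). Its partner Cfap44 was lower in cortex by a smaller amount (-2.31, SE 0.37). The doublet inner protein Cfap77 was listed at 0 in 4 of 5 WT cortex samples and at 1.67 in the other, and at 17.0, 13.4, 20.3, 27.2 and 14.3 in WT hippocampus. Further doublet inner proteins, Cfap52 (-3.64, SE 0.40), Cfap53 (-3.38, SE 0.53), Cfap161 (-3.14, SE 0.31) and Cfap126 (-2.60, SE 0.30), were lower in cortex too. Cfap43, Cfap77, Cfap52, Cfap53 and Cfap161 passed the filter only through the other regions, so their differences are given as a description. The spoke head genes Rsph4a (-2.59, SE 0.26), Rsph1 (-1.95, SE 0.18) and Rsph9 (-0.93, SE 0.13) were lower in cortex, and so was the tektin Tekt1 (-2.43, SE 0.29). In contrast, the central pair gene Cfap74 (chr4:155409190-155466823, plus strand) was higher in cortex, where its 5 WT samples, 518 to 662, lay above the 377 to 467 of hippocampus (0.45, SE 0.09, adjusted p = 4.64e-05).

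The members known outside motile cilia differed little, with log2 differences between -0.22 (Cfap298) and -0.04 (Cfap20), of which 3 of 4 passed the test. The 4 members that the table lists too low over all samples for this test were Cfap221 (2.46 in cortex, 12.5 in hippocampus, 14.5 in striatum, means of 15 samples), Cfap299 (5.63, 14.6 and 9.55), Cfap58 (4.04, 17.0 and 4.85) and Dnah17, a heavy chain known from sperm flagella (17.6, 4.69 and 7.16). Dnah17 was the only one of these with its highest mean in cortex.

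Between WT cortex and WT striatum, 25 of 50 members were lower and 7 higher in cortex, where 30.0% of all genes tested were lower and 29.3% higher. The median log2 difference was -0.35 beside -0.01 over all genes. All 10 members under a mean of 10 in cortex were among the 25, and over the 40 others 15 were lower and 7 higher, where 29.7% of all such genes were lower and 29.0% higher, with a median of -0.05. Of the 3 members with the largest differences among those without overlap, Dnah11 (-4.82, SE 0.53) and Cfap77 (-3.76, SE 0.40) were also among the 3 largest against hippocampus. The other, the inner arm heavy chain Dnah3, was at 4.67, 1.48, 0.911, 3.66 and 6.66 in WT cortex and at 53.0, 53.4, 103, 135 and 171 in WT striatum, without overlap (-4.56, SE 0.49). All 3 passed the filter only through the other regions, so their differences are given as a description. The 7 members that were higher in cortex were Rsph3a, Rsph3b, Rsph10b, Dnah7a, Dnah7c, Cfap45 and Cfap300. Rsph3a, at 449, 477, 499, 437 and 386 in cortex and 189, 159, 246, 277 and 293 in striatum, differed by 0.98 (SE 0.16, adjusted p = 1.11e-06). Dnah7a differed by 0.72 (SE 0.22, adjusted p = 0.00451), with 44.2 ± 2.50 in cortex and 26.7 ± 4.73 in striatum, and the dynein assembly factor Cfap300 by 0.43 (SE 0.12, adjusted p = 0.00149), with 166 ± 10.2 and 124 ± 17.7. Dnah9, in contrast to its difference from hippocampus, was at 103 ± 25.2 in cortex and 96.4 ± 27.3 in striatum and did not pass the test (0.12, SE 0.23, adjusted p = 0.691).

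Hippocampus and striatum both border the lateral ventricle, and their axoneme genes differed in both directions. Of 50 members, 18 were higher and 4 lower in WT hippocampus than in WT striatum, where 28.3% of all genes tested were higher and 27.8% lower, and the median log2 difference was 0.41 beside 0.00 over all genes. Over the 40 members with a mean of at least 10 in all 3 regions, 17 were higher and 3 lower, where 28.1% and 28.0% of all such genes were. Dnah9 stood at 78.8, 58.9, 111, 106 and 127 in WT striatum, and its difference from hippocampus of 3.02 (SE 0.23, adjusted p = 7.34e-15), or 8.12-fold on this scale, was the largest. Next were Cfap100, a modifier of inner dynein arms (1.73, SE 0.25, adjusted p = 9.14e-08), at 270 ± 47.2 in hippocampus and 87.3 ± 45.7 in striatum, and Cfap43 (1.55, SE 0.33, adjusted p = 0.000115), at 58.2, 25.4, 50.1, 68.6 and 63.3 in WT striatum. The assembly factor Cfap300, the spoke genes Rsph1, Rsph3a, Rsph3b, Rsph4a and Rsph9, and Tekt1 were also higher in hippocampus.

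The 4 members lower in hippocampus than in striatum were Cfap99, Dnah1, Cfap74 and Cfap20. The inner arm heavy chain Dnah1 (chr14:31260375-31323896, minus strand) was at 394, 495, 390, 390 and 412 in WT striatum. It was at 182, 254, 198, 218 and 198 in WT hippocampus and at 134 to 198 in WT cortex. Striatum was therefore set apart from both other regions for Dnah1, with log2 differences of -0.99 (SE 0.12, adjusted p = 2.66e-09) for hippocampus and -1.36 (SE 0.12, adjusted p = 4.71e-13) for cortex against striatum. Cfap99 (chr5:34288600-34327327, plus strand) was at 23.7, 30.1, 23.0, 22.1 and 17.6 in WT striatum. It was at 2.10, 4.09, 11.1, 9.30 and 7.41 in hippocampus (-1.78, SE 0.36) and at 2.46 to 12.7 in cortex (-1.33, SE 0.36). With means of 8.63 in cortex, 9.19 in hippocampus and 27.2 in striatum over 15 samples each, Cfap99 passed the filter only through striatum, so its difference is given as a description.

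**Figure D2:**
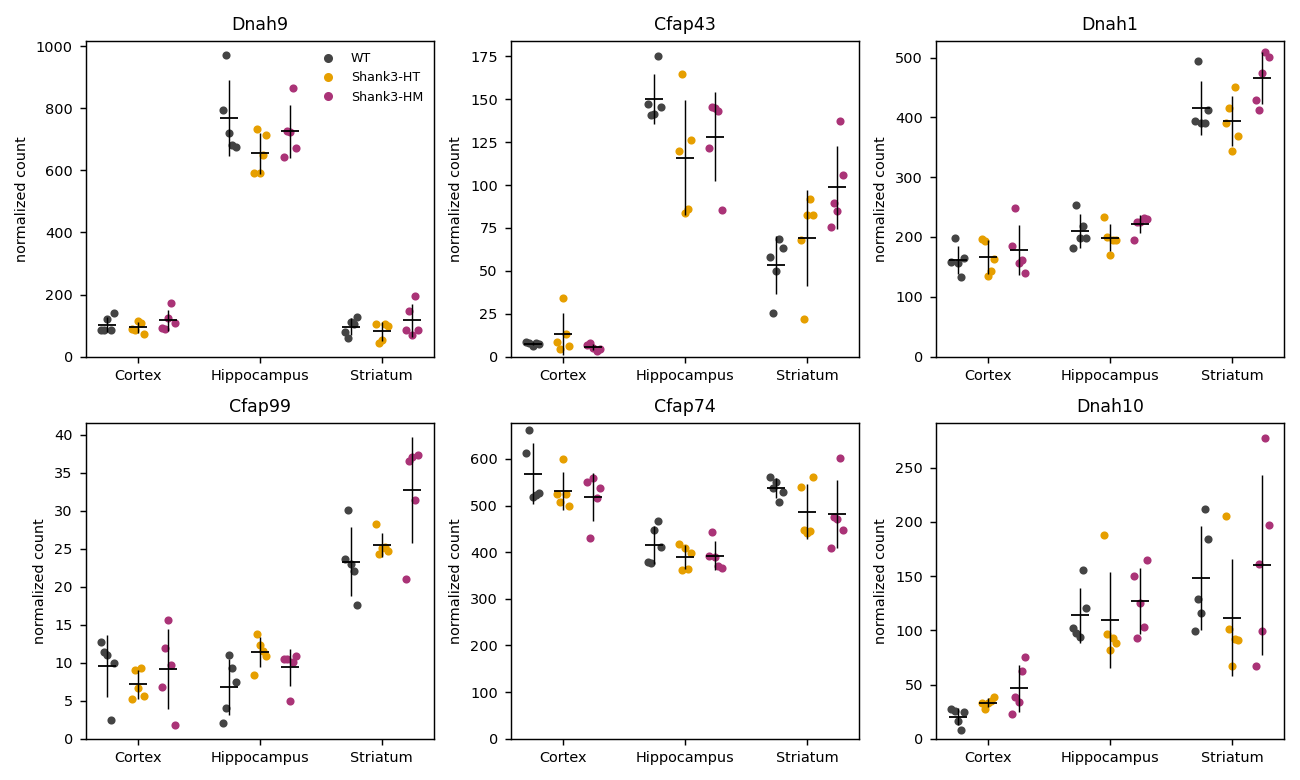
Normalized counts of Dnah9, Cfap43, Dnah1, Cfap99, Cfap74 and Dnah10 in each sample (points) by region and genotype, with the mean ± SD of the 5 samples (bars). Dnah9 is high in hippocampus in all genotypes, Dnah1 and Cfap99 are highest in striatum, and the genotypes overlap in most panels.

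Several members share their place in the genome with another coding gene, among them Cfap100 with Zxdc, Cfap43 with Gsto1, Gsto2 and Itprip, Dnah11 with Cdca7l, Dnah3 with Lyrm1, Cfap97 with Snx25, Cfap61 with Crnkl1, Rsph9 with Mrps18a and Rsph10b with Pms2. All but Itprip and Pms2 lie on the opposite strand, the library kit was stranded, and whether the counting used strand is not given in the sources used here.

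Motile cilium genes outside the name rule were read as lists by role, beside the shares of all genes lower in cortex given above (23.3% against hippocampus and 30.0% against striatum). Genes of these lists with a mean under 10 in cortex also passed the filter only through the other regions, so the lists are given without them. Of the central pair genes, 3 of 7 (Ak7, Spag16 and Spag17) were of this kind. Of the 4 others (Hydin, Spag6l, Spef1 and Spef2), 3 were lower in WT cortex than in WT hippocampus, with a median log2 difference of -1.95, and 3 lower than in striatum, with a median of -1.65. Hydin was at 18.4 ± 2.07 in WT cortex, 137 ± 30.9 in hippocampus and 93.6 ± 31.3 in striatum. Of the multiciliated cell programme, which includes Foxj1, Rfx2, Rfx3 and Ccno, 1 of 7 tested genes (Myb) was under 10 in cortex. The 6 others were all lower in cortex than in hippocampus (median -2.11), and 5 of 6 were lower than in striatum (median -1.68). The remaining gene, Gmnc, a geminin relative that starts the programme, was higher in cortex than in striatum (1.19, SE 0.48, adjusted p = 0.0303), at 22.5 ± 6.04 in WT cortex, 137 ± 64.3 in hippocampus and 10.3 ± 7.0 in striatum. Ccno, a cyclin-like protein needed for making many basal bodies, was at 15.5 ± 9.45 in cortex, 53.5 ± 16.3 in hippocampus and 103 ± 16.6 in striatum.

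The other lists are given by their counts. Against hippocampus, 2 of 6 docking complex and ruler genes, 2 of 8 dynein assembly genes (without Daw1 and Dnaaf1, under 10 in cortex), 3 of 8 genes of the nexin-dynein regulatory complex, 1 of 2 light chains (without Dnali1) and 2 of 6 further doublet inner proteins were lower in cortex. Higher in cortex were 1 dynein assembly gene (Lrrc6) and 2 regulatory complex genes (Drc1 and Drc3). Drc1 was highest in striatum, at 366 ± 23.8 in WT cortex, 238 ± 23.0 in hippocampus and 584 ± 22.0 in striatum. Against striatum, 3 of 6 docking, 2 of 8 assembly, 4 of 8 regulatory complex, 1 of 2 light chain and 4 of 6 inner protein genes were lower in cortex, and 4 regulatory complex genes (Ccdc65, Tcte1, Gas8 and Drc3) were higher. Between hippocampus and striatum, no light chain passed the test, and each of the other lists by role had 1 to 3 genes higher and 0 to 2 lower in hippocampus. The 40 genes of intraflagellar transport and the primary cilium, an organelle of most neurons, had medians of 0.01 for cortex against hippocampus, -0.03 for cortex against striatum and -0.05 for hippocampus against striatum. Of them, 8 were higher and 7 lower in the first, 11 and 14 in the second, and 11 and 15 in the third. Of all genes tested, 23.3% were higher and 23.3% lower in the first, 29.3% and 30.0% in the second, and 28.3% and 27.8% in the third.

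Marker genes of ventricular tissue moved with the regions as well. Of the 10 ependymal markers, 4 (Ccdc153, Mia, Sntn and Tmem212) had a mean under 10 in cortex. The 6 others were all lower in WT cortex than in WT hippocampus (median -1.79), and 5 of 6 were lower than in striatum (median -1.65). The summed level of all 10 was 754 to 1016 in cortex, 1667 to 2403 in hippocampus and 1400 to 2610 in striatum over all genotypes, and the defining markers Ccdc153 and Tmem212 were near 0 in WT cortex, at 0 to 7.65 and 0 to 1.01. Between hippocampus and striatum, 0 of these 6 were higher and 1 was lower (median 0.21). Of the 14 choroid plexus markers, 7 had a mean under 10 in cortex. Of the 7 others, 6 were lower in cortex than in hippocampus (median -4.76) and 6 higher in hippocampus than in striatum (median 4.13), and all 14 had a summed level of 1605 to 130890 in hippocampus. Between cortex and striatum, 2 of these 7 were higher and 1 lower in cortex. The 3 neuronal markers were all higher in cortex than in either other region. The 6 leptomeningeal markers were all higher in cortex and in hippocampus than in striatum, and 3 of them were lower in cortex than in hippocampus. Of the 4 astrocyte markers, Gfap (-2.54, SE 0.19) and Aqp4 (-0.43, SE 0.08) were lower and Aldh1l1 (0.92, SE 0.08) higher in cortex than in hippocampus, and 4 and 3 of 4 were higher in cortex and in hippocampus than in striatum. Of the 5 neuroblast markers other than Igfbpl1, which was under 10 in cortex, 2, 3 and 3 were lower in the first-named region of the 3 contrasts, with Dcx higher in cortex in both cortical contrasts. The part of these cell types in the regional differences of the members was not tested.

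The members together were also summarised per sample. The mean log2(normalized count + 1) over the 54 members in cortex was 5.36 ± 0.08 for WT, 5.45 ± 0.15 for Shank3-HT and 5.49 ± 0.10 for Shank3-HM mice (SD, n = 5). In hippocampus it was 6.65 ± 0.20, 6.58 ± 0.15 and 6.78 ± 0.12, and in striatum 6.25 ± 0.26, 6.09 ± 0.35 and 6.32 ± 0.27. The ranges of the genotypes overlapped in every region. The lowest and highest striatal samples, at 5.64 and 6.58, were both Shank3-HT, and the higher of them was the replicate 5 with the Ttr level of 62259.

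**Figure D3:**
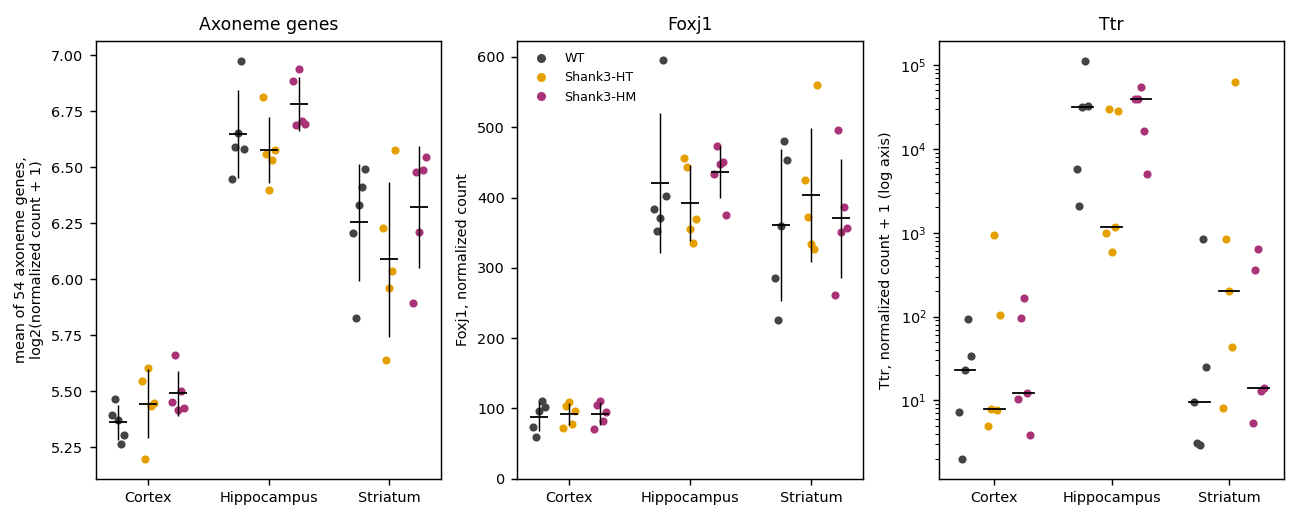
Mean log2(normalized count + 1) of the 54 members, Foxj1 normalized counts (mean ± SD) and Ttr normalized counts (log axis, line at the median) in each sample by region and genotype. The members and Foxj1 are lowest in cortex in all genotypes, and a single striatal Shank3-HT sample has a Ttr level of 62259, where the other striatal samples have at most 840.

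The second comparison asked whether loss of Shank3 alters the axoneme genes in any region. No member passed the test in any of the 6 contrasts against WT (limma, adjusted p under 0.05). In cortex, 0 of 41 members were called in Shank3-HT, where 0% of all genes were called, and 0 in Shank3-HM, where 0.0121% were. In hippocampus, 0 of 52 were called in either genotype, where 0.00603% of all genes were called in Shank3-HT and 0.00603% in Shank3-HM. In striatum, 0 of 51 were called, where 0.00607% of all genes were called in Shank3-HT and 0.182% in Shank3-HM. Since hardly any gene of the table was called, these counts are no result about the members. In Shank3-HT cortex the test did not call even Shank3 itself, although its Shank3-HT and WT samples did not overlap.

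Without adjustment for multiple tests, a few members of each contrast were under the threshold. An unadjusted limma p under 0.05 was seen for 3 of 41 members in Shank3-HT cortex (7.32%, beside 2.68% of all genes) and 4 of 41 in Shank3-HM cortex (9.76%, beside 5.49%). It was seen for 5 of 52 in Shank3-HT hippocampus (9.62%, beside 5.26%) and 3 of 52 in Shank3-HM hippocampus (5.77%, beside 4.73%). In striatum it was seen for 6 of 51 members in Shank3-HT (11.8%, beside 7.43%) and 5 of 51 in Shank3-HM (9.80%, beside 7.43%). In Shank3-HM these members were above WT in all 3 regions, 4, 3 and 5 of them with none below. In Shank3-HT, 1 was above and 2 below WT in cortex, 0 above and 5 below in hippocampus, and 1 above and 5 below in striatum. The median log2 difference of the members from WT was -0.05 and 0.05 in Shank3-HT and Shank3-HM cortex, -0.09 and 0.08 in hippocampus, and -0.15 and 0.02 in striatum. The 6 neuroblast markers were all below WT in striatum, by -0.23 to -0.65 in Shank3-HT and by -0.03 to -0.39 in Shank3-HM. None of them passed the adjusted threshold there, and a link with the members was not tested. Both genotypes of a region share their WT samples, so their values are not independent of each other.

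**Figure D4:**
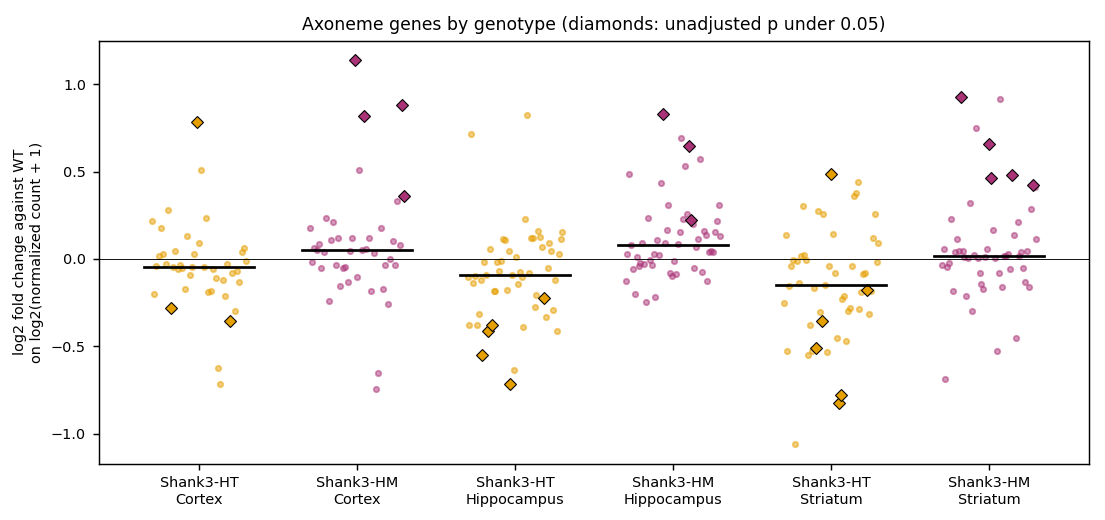
Log2 difference from WT of each tested member in Shank3-HT and Shank3-HM by region, with the median as a black line and members with an unadjusted p under 0.05 as diamonds. The members spread to both sides of 0 in all 6 contrasts, and none passed the test after adjustment.

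The members with the smallest unadjusted p in each contrast are given with their values. In cortex, the inner arm heavy chain Dnah10 (chr5:124725085-124834308, plus strand) was at 27.7, 25.2, 16.1, 8.54 and 24.2 in WT. It was at 33.1, 27.5, 33.4, 34.4 and 38.5 in Shank3-HT and at 22.8, 38.3, 34.3, 62.4 and 75.8 in Shank3-HM. Both mutant groups reached above WT but overlapped it, with log2 differences of 0.78 (SE 0.32, unadjusted p = 0.0268, adjusted p = 1.0) and 1.14 (SE 0.32, unadjusted p = 0.00257, adjusted p = 0.878). Without cortex Shank3-HM replicate 2, the library with the high Drd1 level, the latter was 1.18 (unadjusted p = 0.00344), and 2 of 41 members instead of 4 had an unadjusted p under 0.05, where 5.14% of all genes did. The tektin Tekt4, at 11.8 ± 4.15 in WT and 23.3 ± 10.3 in Shank3-HM cortex, differed by 0.88 (unadjusted p = 0.0138), and Rsph3a, at 449 ± 43.4 in WT and 354 ± 60.6 in Shank3-HT cortex, by -0.36 (unadjusted p = 0.0187).

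In hippocampus, Cfap70, a gene linked to the outer arm, was at 62.6, 40.5, 89.2, 59.5 and 55.7 in WT and at 54.4, 36.6, 20.8, 40.4 and 35.5 in Shank3-HT. The difference was -0.71 (SE 0.25, unadjusted p = 0.0101, adjusted p = 0.926). Cfap43 was at 150 ± 14.4 in WT and 116 ± 33.3 in Shank3-HT (-0.41, unadjusted p = 0.0367). In Shank3-HM hippocampus, Cfap61, of the complex at the spoke base, was at 109 ± 64.4 against 56.9 ± 17.6 in WT, with 1 sample at 222 and the others at 69.4 to 101 (0.83, unadjusted p = 0.0118, adjusted p = 0.92). Dnah3 was at 83.2, 71.1, 76.0, 69.1 and 57.2 there and at 24.2, 66.9, 36.6, 60.1 and 50.6 in WT (0.65, unadjusted p = 0.0192).

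In striatum, Dnah11 was at 91.1, 57.9, 79.2, 51.4 and 122 in WT and at 36.8, 27.8, 59.9, 30.9 and 75.0 in Shank3-HT. The difference was -0.82 (SE 0.31, unadjusted p = 0.0176, adjusted p = 0.641). Cfap57, of the inner arm region, was at 36.8 ± 7.04 and 25.7 ± 6.5 (-0.51, unadjusted p = 0.018). Without striatum Shank3-HT replicate 5, the library with the high Ttr level, these differences were -1.02 (unadjusted p = 0.00431) and -0.64 (unadjusted p = 0.00369), and 9 of 51 members instead of 6 had an unadjusted p under 0.05, where 5.76% of all genes did, still with none past the adjusted threshold (lowest adjusted p = 0.857). In Shank3-HM striatum, Cfap97d2 was at 26.4, 36.9, 40.1, 26.8 and 35.0 against 19.1, 17.8, 24.3, 21.7 and 19.3 in WT (0.66, unadjusted p = 0.00722, adjusted p = 0.424). Cfap43 was at 75.6, 89.6, 85.2, 138 and 106 there against 58.2, 25.4, 50.1, 68.6 and 63.3 in WT (0.93, unadjusted p = 0.0141, adjusted p = 0.508). For Cfap97d2 and Cfap43 the Shank3-HM and WT striatal samples did not overlap, yet neither passed the test over all genes.

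The difference of the genotype effects between regions was tested directly, over 50 members. No member passed in the 3 contrasts of the Shank3-HT effect, where 0% of all genes were called in each, or in those of the Shank3-HM effect, where 0% were called for cortex against hippocampus, 0.0539% for cortex against striatum and 0.0718% for hippocampus against striatum. Unadjusted limma p under 0.05 occurred for 4, 5 and 3 members for the Shank3-HT effect (3.35%, 3.46% and 5.60% of all genes) and for 2, 4 and 1 members for the Shank3-HM effect (4.45%, 5.42% and 5.37%), in the same order of regions. Dnah11 had the smallest such p in both cortex against striatum contrasts, 0.00279 for the Shank3-HT and 0.00229 for the Shank3-HM effect. In cortex it was at 8.47, 1.81, 33.6, 1.22 and 15.2 in Shank3-HT and at 3.6, 37.3, 5.05, 18.1 and 4.37 in Shank3-HM, so that single samples, among them the replicate 2 with the high Drd1 level, lay far above the WT values of up to 2.19. No gene of the other motile cilium lists and no ependymal or choroid plexus marker passed the test in a genotype contrast or in these differences. Every choroid plexus marker was below WT in Shank3-HT hippocampus, from -0.71 (Sostdc1) to -2.24 (Ttr, SE 1.18) on the log2 scale. In Shank3-HT striatum every one was above WT, from 0.37 (Clic6) to 4.19 (Ttr, SE 2.05), with the high Ttr library among the samples. In Shank3-HM, Ttr differed from WT by 0.47 (SE 1.18) in hippocampus and by 1.39 (SE 2.05) in striatum. A link of these genotype values with the members was not tested.

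Lastly, the relation of each member with Ttr and with Foxj1 across the 15 samples of a region was computed on the log2 scale, as 144 relations for each marker, with two-sided permutation p-values. The same was done for all genes with a mean of at least 10 in a region, 49557 relations for each marker, over which the p-values were adjusted. For Ttr, an unadjusted p under 0.05 was seen for 4 of 41 members in cortex (9.56% of all genes), 12 of 52 in hippocampus (8.42%) and 3 of 51 in striatum (16.1%). The median Pearson r of the members was -0.14, 0.28 and 0.15, beside -0.01, -0.02 and -0.05 over all genes. Tekt1 in hippocampus was the single member past the adjusted threshold (r = 0.85, rho = 0.93, n = 15, permutation test, adjusted p = 0.016), beside 79 of all 16570 genes there. Its 3 lowest values, 44.2, 51.3 and 60.7, were in samples with Ttr at 1181, 591 and 2097, and its highest, 128 and 125, in the samples with the highest Ttr, 55088 and 113040. Without the 2 samples whose Ttr lay farthest from the median, r was 0.87. As deviations from the genotype means the highest r of any member in hippocampus was 0.79, and no relation passed adjustment even over the 144 alone.

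In hippocampus r with Ttr was positive for 43 of 52 members and in cortex for 15 of 41. In striatum the sign depended on the samples and on the genotype means. There 35 of 51 members had a positive r. Leaving out the sample with Ttr at 62259 left 27 of 51 and a median r of 0.02, and leaving out the 2 samples farthest from the median left 14 of 51 and a median r of -0.11. As deviations from the genotype means, 42 of 51 were positive with a median r of 0.29.

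Foxj1 ran from 60.0 to 111 in cortex, from 335 to 596 in hippocampus and from 226 to 559 in striatum. An unadjusted p under 0.05 was seen for 5 of 41 members in cortex (13.1% of all genes), 17 of 52 in hippocampus (11.5%) and 17 of 51 in striatum (10.7%). The median r was -0.24, 0.37 and 0.36, beside -0.02, -0.01 and -0.03 over all genes. After adjustment over the 49557 relations no member passed, and neither did any other gene (lowest adjusted p of a member 0.106, permutation test). Adjusted over the 144 relations of the members alone, a list chosen with results of these data known, 2, 9 and 12 members passed. The highest in striatum were Cfap126 (r = 0.84, rho = 0.82), Cfap44 (r = 0.83, rho = 0.75) and Tekt1 (r = 0.78, rho = 0.76), followed by Dnah5, Tekt4, Cfap161, Cfap65, Rsph1, Rsph4a, Dnah6, Cfap206 and Dnah3, all with a positive r. In hippocampus they were Cfap52 (r = 0.87, rho = 0.71), Rsph1 (r = 0.86, rho = 0.89), Dnah6 (r = 0.81, rho = 0.74), Cfap65, Tekt1, Rsph4a, Cfap161, Cfap206 and Cfap97d2. The 2 members in cortex, Rsph3b (r = -0.79, rho = -0.72) and Cfap97 (r = -0.66, rho = -0.70), were lower where Foxj1 was higher. By both r and rho, 2, 3 and 10 members passed this adjustment. Without the 2 samples of each region whose Foxj1 lay farthest from the median, none of the 144 passed it. The medians were then -0.08, 0.27 and 0.34, and the highest r in striatum was 0.82 beside 0.84 with all 15 samples. Those samples included striatum Shank3-HT replicate 5, and without that library alone 8 of 51 striatal members passed.

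**Figure D5:**
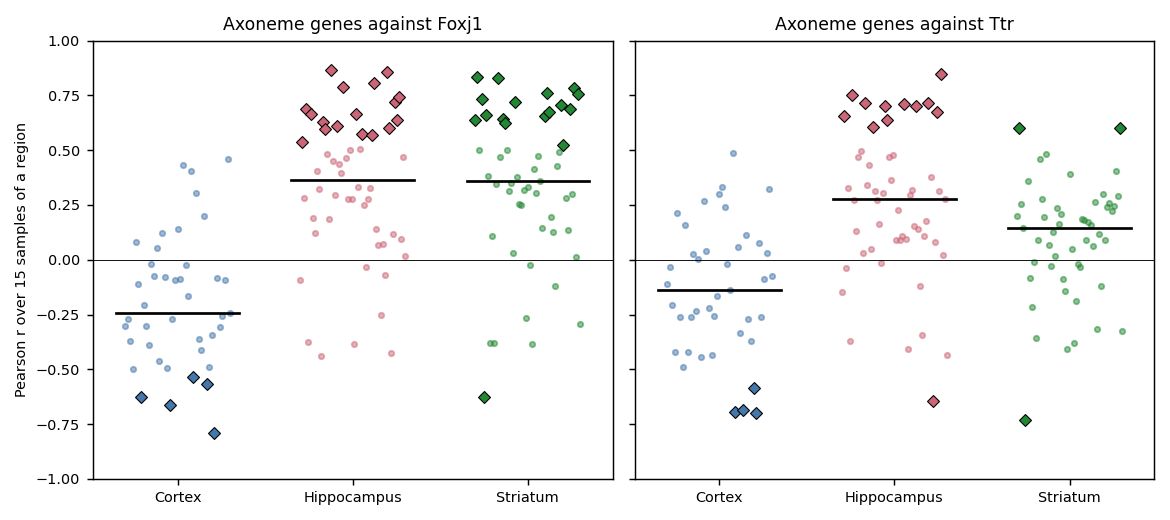
Pearson r of each member with Ttr and with Foxj1 across the 15 samples of cortex, hippocampus and striatum, with the median as a line and members with an unadjusted permutation p under 0.05 as diamonds. In hippocampus and striatum most values with Foxj1 lie above 0, while in cortex most lie below 0.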

How the data were processed

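Per the submitters' processing notes, the authors quantified reads with Salmon 1.1.0 on GRCm38, with correction for GC bias, and scaled the gene sums with DESeq2 1.26.0 (a later release in the methods) in R 3.6.2. The deposited table holds the resulting normalized counts, a signal per gene and sample with decimals, for 18135 genes, of which 18120 were given symbols from GENCODE M21. Members and lists were chosen with earlier results of these data known. Values were tested as log2(value + 1) with limma 3.58.1 (trend) in R 4.3.3 and Benjamini-Hochberg adjustment over all genes with a mean of at least 10, fitted per region (15 samples) for genotypes and over all 45 samples for regions and for differences of genotype effects. p-values measure the spread between these mice. Relations used 100000 permutations, with adjustment over the members and, added later, over all genes. The fits were tested on simulated data. Genes named were the 3 highest per family, the 3 largest regional differences each way without overlap, the 2 smallest p per genotype contrast and those nearest the limit. Others named were chosen after their values were seen. Alternatives changed the filter, pseudocount, scaling, trend, samples fitted, the replicate block and single samples.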

Additional observations from a re-analysis of the deposited data

Results flagged for a closer look

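Of 270 groups of 5 samples (27 named members, Ttr, Foxj1 and the mean log2 level of all members, each by region and genotype), 20 held a sample far from the other 4 by Dixon's criterion, where chance gives about 1 in 20 groups. In cortex these were Cfap20 in Shank3-HM replicate 4 (1067), Cfap74 in Shank3-HT replicate 3 (600.1), Cfap77 in WT replicate 2 (1.67) and in Shank3-HT replicate 4 (listed at 0), and Cfap99 in WT replicate 4 (2.46). In hippocampus, the WT samples that stood apart were replicate 4 for Cfap43 (176) and Foxj1 (596), replicate 1 for Dnah11 (42.9) and replicate 3 for Tekt2 (24.3) and Tekt5 (111). The Foxj1 value belongs to the hippocampal sample with the highest Ttr, 113040. In Shank3-HT hippocampus they were Cfap100 in replicate 2 (202) and Dnah10 in replicate 1 (188), and in Shank3-HM hippocampus Cfap97d2 in replicate 5 (20.3), Cfap99 in replicate 3 (4.97) and Dnah1 in replicate 1 (196). In striatum they were Cfap43 in Shank3-HT replicate 2 (21.7), Cfap77 in Shank3-HT replicate 3 (4.0), Cfap99 in Shank3-HT replicate 1 (28.2), Cfap61 in Shank3-HM replicate 1 (298) and Dnah1 in WT replicate 2 (495). No member had a genotype effect that differed between regions by the test of the difference.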

How the results depend on the processing

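No genotype contrast and no difference of genotype effects called a member under any alternative run (for the genotype contrasts, 0 to 0 when single samples were left out). The regional counts stayed at 34 to 39 members for cortex against hippocampus, 31 to 35 for cortex against striatum and 19 to 24 for hippocampus against striatum when single samples were left out. With a mean of at least 100 they were 18 and 14 for the first pair of contrasts, of 25 members tested. Relations with Ttr numbered 1 when single doubted samples were left out, 2 without the 2 samples farthest from the median and 0 as deviations from the genotype means. Those with Foxj1 numbered 16 to 23, 0 and 28 in the same order, and 13 after quantile normalization, beside 23 when adjusted over the members alone and 0 when adjusted over all genes, an adjustment added after the data were seen. Why these counts moved was not tested, apart from the smaller number of genes or samples in an alternative. All 487 alternatives for single named members kept their direction and their side of the threshold. With genotype and replicate number together as a block, which treats same-numbered samples of a genotype as 1 mouse, 37, 34 and 22 members were called in the 3 regional contrasts. In the differences of genotype effects 0 were called with that block. With the replicate number alone as a block, 0 were called in the genotype contrasts. Between genotypes, same-numbered samples correlated above 0.1 in at most 1 of 5 pairs of a comparison, and between regions of a genotype in 4 of 15 (cortex and hippocampus), 4 of 15 (cortex and striatum) and 8 of 15 (hippocampus and striatum, lowest 0.038). The main fits did not take the numbers as pairs. Differently numbered samples were not compared, so these values do not settle whether the regions came from the same mice. Depth is unknown from normalized counts, which limits what can be said of members near 0.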

Other observations

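The dynein intermediate chains, which link the heavy chains of an arm to its cargo doublet, appear in the table under older symbols and were read after the symbols were seen. Wdr63, of the inner arm, was at 1.20 ± 2.68 in WT cortex, 38.4 ± 14.3 in hippocampus and 22.6 ± 11.2 in striatum (SD, n = 5). Wdr78, also of the inner arm, was at 320 ± 47.1, 366 ± 91.8 and 539 ± 80.7. Of the outer arm chains, Dnaic2 was at 21.5 ± 7.89, 71.2 ± 34.2 and 95.5 ± 10.5, and Dnaic1 at 71.5 ± 14.4, 73.7 ± 18.1 and 73.4 ± 6.39. Wdr63 passed the filter only through the other regions. Of the 3 other genes, 1 was lower in WT cortex than in hippocampus and 2 lower than in striatum, and 1 was lower in hippocampus than in striatum (limma, adjusted p under 0.05), where 22.9%, 29.7% and 28.0% of all genes with a mean of at least 10 in all 3 regions were lower.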
